A study of Mus musculus with 6 samples.

Results

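The complement and coagulation genes described here are a list of 46 genes for liver complement components, clotting factors, fibrinolysis factors and their inhibitors, each taken as the row of the count and RPKM tables that carries its symbol. All 46 symbols were found among the 25078 genes measured, and 19 of them passed the expression minimum used for testing (an RPKM, a read count scaled to exon length and library size, over 1 in at least 1 of the compared libraries). RNA-seq was performed on Hepa1-6, an established mouse hepatoma line derived from a C57/L animal, in 6 libraries. The wt library came from untreated parental cells. The 2 scr control libraries (25-2 and 50-1) came from cells transduced with lentivirus carrying a scramble vector, and the 3 knockdown libraries (25-3, 50-2 and 50-5) from cells transduced with a midnolin shRNA vector. The transduced cells had been selected with puromycin, and colonies grown from single cells were isolated by limiting dilution, so that a library may represent 1 clone. The labels give neither the clone behind each library nor whether libraries of a group were separate cultures, and p-values therefore measure only the spread between these libraries. The titles of the knockdown libraries read KO, while their treatment label gives the shRNA vector. The comparison of knockdown with scr asks which transcripts differ when midnolin is low. The libraries held 25586301 to 33119710 gene counts.

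Most plasma complement and clotting proteins are made by hepatocytes and secreted. In the complement cascade, the classical and lectin pathways (C1r, C1s, C4, C2, mannose-binding lectin and its proteases) and the alternative pathway (factor B and factor D) all cleave C3, after which C5 to C9 assemble into a membrane pore, while factor I, C4b-binding protein, C1 inhibitor, vitronectin and the membrane proteins CD55 and CD59 hold the cascade in check. Clotting is started by tissue factor (F3), a membrane protein that is not a plasma factor, and runs through vitamin K-dependent proteases to thrombin, which turns fibrinogen into fibrin. Antithrombin, heparin cofactor II and the protein C system limit it, and plasmin, formed by plasminogen activators, dissolves the clot.

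The targeted gene, Midn, had an RPKM of 59.6 and 50.8 in scr 25-2 and 50-1 against 20.3, 21.8 and 22.1 in knockdown 25-3, 50-2 and 50-5, and 60.5 in wt (log2 fold change -1.38 ± 0.133 SE, FDR 0.00777 by the edgeR quasi-likelihood test). Of 11 hepatocyte markers, 10 were tested and 0 were called in either direction (4 had an unadjusted p under 0.05 in edgeR, and DESeq2 called 1 higher and 1 lower), and their summed RPKM was 7070 in wt, 4473 to 5049 in scr and 2277 to 3390 in knockdown. Without Alb the sum was 4646 in wt, 2245 to 2596 in scr and 2256 to 3230 in knockdown, and 6 of the 10 tested markers had a positive log2 fold change (median 0.30), among them Hnf4a at 1.23 (edgeR FDR 0.206). Alb, the main secreted protein of hepatocytes, had an RPKM of 2424 in wt and 1877 and 2804 in scr against 336, 62.7 and 20.9 in knockdown 25-3, 50-2 and 50-5 (log2 fold change -4.08 ± 1.12 SE, edgeR FDR 0.0712). Of 6 endothelial markers 0 reached the expression minimum, and their summed RPKM was 2.96 in wt, 0.207 to 0.248 in scr and 0.383 to 0.537 in knockdown. Of 8 macrophage markers 2 did and 0 were called by edgeR (1 had an unadjusted p under 0.05, and DESeq2 called 1 higher and 0 lower), their summed RPKM was 4.12 in wt, 4.26 to 5.03 in scr and 8.66 to 13.7 in knockdown, and C1qa, C1qb and C1qc were at 0 in every library. Of 6 fibroblast markers 2 were tested and 1, Pdgfra, was called higher. The summed RPKM of that list, nearly all of it Dcn, was 1030 in wt, 562 to 595 in scr and 411 to 576 in knockdown. Without Dcn it was 2.06 in wt, 0.314 to 0.354 in scr and 1.77 to 2.95 in knockdown, so that wt lay within the knockdown range. The part of these differences in the results below was not tested.

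In the knockdown libraries, 1 of the 19 tested complement and coagulation genes was called higher than in scr and 8 were called lower, at an FDR under 0.05 and a fold change of at least 1.5. The gene called higher was F3, and those called lower were Serpind1, F11, C1ra, C4bp, Fga, Pros1, Plat and Kng1. Over all 11577 tested genes the same rule called 5.40% higher and 5.23% lower. The median log2 fold change was -1.57 over the 19 members and -0.0097 over all tested genes. These 19 are not the whole list, since Fga, Fgg, Kng1 and Serpind1 passed the minimum through the scr libraries alone and Serpinf2 through the knockdown libraries alone. A gene that passes in 1 group alone has to differ between the groups. C1ra, C4bp, F11, Pros1 and Plat, also called lower, and F3 passed in both groups. With no expression minimum, 42 members were tested, 2 were called higher (F3 and Hc) and 9 lower (the same 8 and F2), where all 18673 genes tested in that fit gave 3.94% higher and 3.38% lower. With wt added to the controls, 21 members were tested, 1 was called higher (F3) and 12 lower (the same 8, F2, Vtn, Fgb and Fgg), where all tested genes gave 7.05% higher and 7.10% lower. In bulk RNA, a lower level cannot be told apart from fewer cells that carry the transcript.

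The calls rested on few libraries. A fit without scr 25-2 or scr 50-1 leaves 1 control library, so that no spread between controls enters it, and its FDR is not given. Without knockdown 50-5, the remaining knockdown libraries were 25-3 and 50-2, whose RPKM values the study lists for its 2 clones. They gave F3 as higher and F11 and Serpind1 as lower, where all tested genes gave 1.81% higher and 1.20% lower. Without knockdown 50-2 the only call among the members was Serpind1, where all tested genes gave 0.772% higher and 0.364% lower. Without knockdown 25-3 it was F3, where all tested genes gave 1.44% higher and 0.806% lower. The fitted values of F3 (3.32 and 3.27) and C1ra (-1.32 and -1.39) in these 2 fits were close to those with all libraries (3.20 and -1.33). With all 5 libraries kept, F3, C1ra, C4bp, F11 and Serpind1 held their calls in every alternative run, whereas Kng1 lost it with other (RLE) size factors, Fga and Kng1 with limma on log2 RPKM, Pros1 and Plat with total counts as library sizes, and Fga, Kng1 and Plat with the first number of the library label as a term. By RPKM, all 3 knockdown libraries lay below both scr libraries in 10 of the 19 tested members (C1ra, C4bp, F11, Fga, Fgb, Kng1, Plat, Proc, Pros1 and Serpind1), a pattern seen in 24.5% of all tested genes. They lay above both in 2 members, Cd59a and F3, a pattern seen in 25.7% of all tested genes. Among the 10, Fga, Kng1 and Serpind1 passed the minimum through scr alone. For these, at least 1 scr library had to lie above all 3 knockdown libraries.

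**Figure D1:**
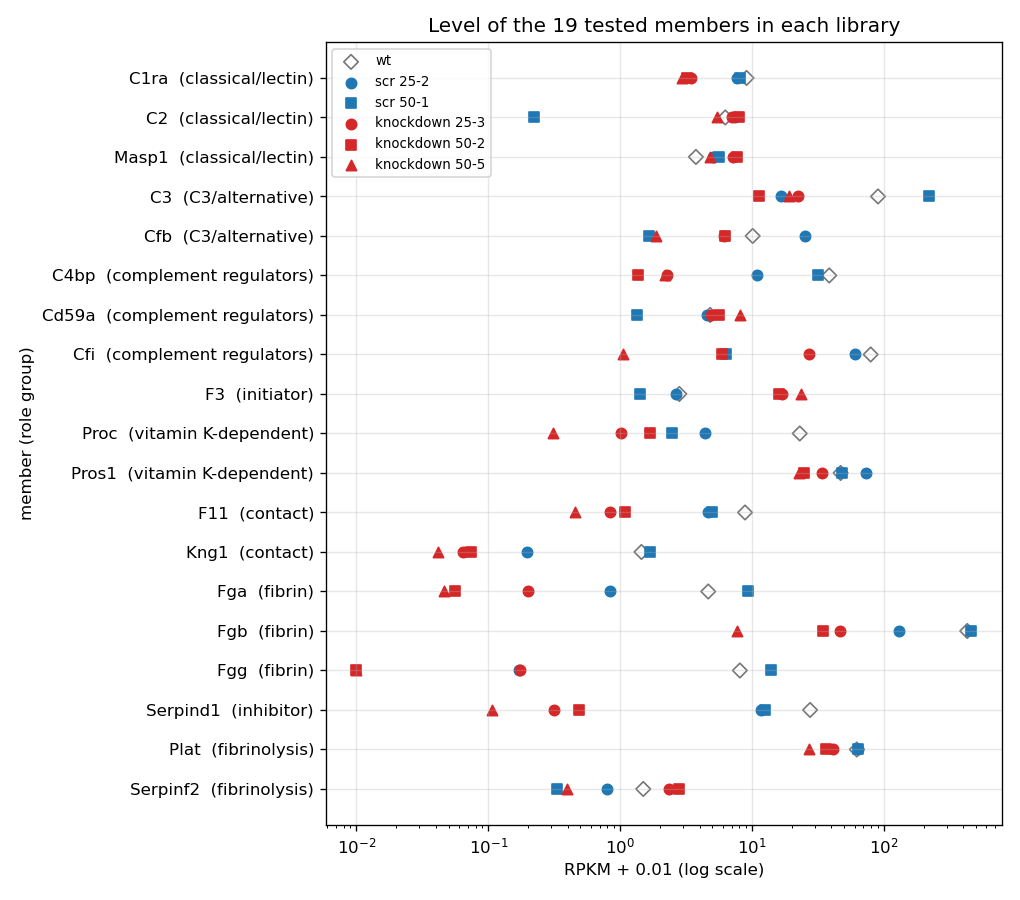
RPKM plus 0.01 on a log axis for the 19 tested members, grouped by role, with 1 point per library (wt as an open diamond, scr in blue, knockdown in red). The red points of Serpind1, F11 and C4bp all lie left of both blue points, those of F3 all lie to the right, and the blue points of C3, C2, Cfb and Fgg lie far apart.

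F3 held the only called rise, and Fgg, Fga and Serpind1 had the most negative fitted log2 fold changes among the members. The 250 bases before their starts are shown, with those of Fgb, which lies beside Fgg and Fga, so that the sequences can be set beside the levels. They are RefSeq sequences of GRCm38.p6, the assembly behind mm10, read 5′ to 3′ on the strand of the gene, and 35 of the 46 members had an entry. Capitals mark matches, on either strand, to the letters GTTAATNAT (HNF1), CAAAGTCCA (HNF4), TTNCNNAA (C/EBP) or TATAAA (a core promoter element).
Fgg, chr3:83007474-83007723, plus strand: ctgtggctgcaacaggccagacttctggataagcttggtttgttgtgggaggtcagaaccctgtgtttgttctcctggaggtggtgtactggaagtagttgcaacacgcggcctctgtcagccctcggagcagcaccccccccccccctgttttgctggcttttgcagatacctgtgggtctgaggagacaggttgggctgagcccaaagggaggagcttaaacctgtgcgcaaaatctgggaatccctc
Fga, chr3:83025903-83026152, plus strand: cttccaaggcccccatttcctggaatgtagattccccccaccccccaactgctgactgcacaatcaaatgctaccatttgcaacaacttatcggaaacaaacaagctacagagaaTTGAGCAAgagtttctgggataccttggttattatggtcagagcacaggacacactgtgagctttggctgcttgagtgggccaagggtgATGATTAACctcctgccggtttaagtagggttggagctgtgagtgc
Fgb, chr3:83049864-83050113, minus strand: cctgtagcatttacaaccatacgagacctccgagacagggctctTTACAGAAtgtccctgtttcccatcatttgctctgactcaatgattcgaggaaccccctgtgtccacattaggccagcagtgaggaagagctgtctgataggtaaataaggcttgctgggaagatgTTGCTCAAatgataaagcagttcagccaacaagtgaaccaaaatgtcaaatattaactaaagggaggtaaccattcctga
Serpind1, chr16:17331121-17331370, plus strand: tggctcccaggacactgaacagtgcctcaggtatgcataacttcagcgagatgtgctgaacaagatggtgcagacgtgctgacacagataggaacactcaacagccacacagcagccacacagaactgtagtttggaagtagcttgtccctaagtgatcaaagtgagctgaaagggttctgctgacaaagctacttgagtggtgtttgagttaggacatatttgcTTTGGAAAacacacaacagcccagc
F3, chr3:121723287-121723536, plus strand: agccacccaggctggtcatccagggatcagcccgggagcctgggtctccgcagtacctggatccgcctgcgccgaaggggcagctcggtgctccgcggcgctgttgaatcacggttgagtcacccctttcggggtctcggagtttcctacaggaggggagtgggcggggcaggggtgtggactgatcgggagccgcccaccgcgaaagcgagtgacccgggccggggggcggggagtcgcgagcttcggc

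In Fga the HNF1 letters begin at position -46 from the start and the C/EBP letters at -135. In Fgb the C/EBP letters begin at positions -206 and -80 from the start and in Serpind1 at -25, and none of the 4 sets of letters was found in the windows of Fgg and F3. HNF1 and C/EBP are transcription factors known from liver gene promoters. Over the 35 member promoters, the HNF1 letters were found in 4 (C4bp, F13b, Fga and Hc), against 0.737% of all 32851 promoters in the table. The C/EBP letters were found in 14 of 35, against 36.9% of all promoters, the TATAAA letters in 4 of 35, against 12.4%, and the HNF4 letters in 0 of 35, against 0.384%. Of the 4 members with the HNF1 letters, C4bp and Fga were called lower, Hc was under the minimum and called higher with no minimum, and F13b had at most 2 counts. The window of F3 was 70.0% G or C, against 44.8% to 56.8% in the other 4 windows shown and a median of 52.4% over all promoters. A match is a match of letters and not a measured binding site.

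F3 (chromosome 3 of mm10, 121723537 to 121735052) encodes tissue factor, which binds factor VII and starts clotting. Its RPKM was 2.63 (25-2) and 1.40 (50-1) in the scr libraries, and 16.9, 15.9 and 23.4 in knockdown 25-3, 50-2 and 50-5. The wt library had 2.80, close to scr 25-2, and the 2 groups did not overlap. From scr (2.02 ± 0.865, SD, n = 2) to knockdown (18.7 ± 4.06, SD, n = 3) this was a 9.20-fold rise, a log2 fold change of 3.20 ± 0.372 (SE, edgeR FDR 0.0104). The call held without knockdown 25-3 (edgeR FDR 0.04575) and without knockdown 50-5 (edgeR FDR 0.0410), and was lost without knockdown 50-2 (edgeR FDR 0.0509). With 1 control library left, the log2 fold change was 3.74 without scr 25-2 and 2.82 without scr 50-1. F3 was called higher in every alternative that kept all 5 libraries. F5, the cofactor that speeds thrombin formation, stayed under the minimum. It had 8 and 11 counts in scr, 18, 69 and 89 in knockdown 25-3, 50-2 and 50-5, and 34 in wt.

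Serpind1 (chromosome 16, 17331371 to 17343574) encodes heparin cofactor II, a plasma inhibitor of thrombin. Both scr libraries agreed closely, with an RPKM of 11.8 in 25-2 and 12.5 in 50-1, and the knockdown libraries had 0.304, 0.480 and 0.0966 in 25-3, 50-2 and 50-5. Parental wt cells had 27.6, more than either scr library. The fall was 41.6-fold, a log2 fold change of -5.38 ± 0.574 (SE, edgeR FDR 0.00893), and the knockdown libraries held 21, 34 and 7 counts. The log2 fold change stayed between -5.92 and -4.96 with single libraries left out. The call was lost without knockdown 25-3 (log2 fold change -5.41, edgeR FDR 0.0546) and held without knockdown 50-2 or 50-5. With 1 control library left, the value was -5.40 without scr 25-2 and -5.34 without scr 50-1. Serpind1 passed the minimum through the scr libraries alone. Serpind1 lies within the bounds of Pi4ka on the opposite strand, and whether the counting used strand is not known, so reads of the pair may not be told apart. Serpinc1 (antithrombin) had 4 to 17 counts in any library and Tfpi (tissue factor pathway inhibitor) 0 to 5.

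Among the contact system genes, F11 (chromosome 8, 45241168 to 45262031), the zymogen of the protease factor XI, fell. Its RPKM was 4.66 and 4.92 in scr 25-2 and 50-1, 0.832, 1.08 and 0.444 in knockdown 25-3, 50-2 and 50-5, and 8.85 in wt. All knockdown libraries were below both scr libraries, and wt was above all 5. The log2 fold change was -2.63 ± 0.393 (SE, edgeR FDR 0.0180), a 6.17-fold fall. The call was lost without knockdown 25-3 (log2 fold change -2.67, edgeR FDR 0.0829) and without knockdown 50-2 (-2.91, edgeR FDR 0.0664). It held without knockdown 50-5 (-2.34, edgeR FDR 0.0413). Tested genes in the surrounding window (5000000 bases to each side, 10 Mb in all) had a median of -0.42 on this scale, and F11 stood at -2.21 after this was taken out. Klkb1, the gene of prekallikrein, lies 4656 bases from F11 and stayed under the minimum, at 24 and 56 counts in scr and 14, 8 and 8 in knockdown. Kng1 (chromosome 16, 23058300 to 23082078), the gene of kininogen, from which bradykinin is cut, had an RPKM of 0.187 (25-2) and 1.68 (50-1) in the scr libraries, 0.0546, 0.0640 and 0.0313 in knockdown, and 1.44 in wt. It passed the minimum through scr 50-1 alone, and its fitted log2 fold change was -4.20 ± 0.967 (SE, edgeR FDR 0.0497), from 5, 6 and 3 counts in knockdown. The Kng1 call was lost without any 1 of the knockdown libraries (log2 fold change -4.40 to -3.96, edgeR FDR 0.149 to 0.165). Its value was -5.04 without scr 25-2, and without scr 50-1 Kng1 was not tested. F12, the gene of factor XII, had at most 1 count.

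The 3 fibrinogen genes lie together on chromosome 3 (83007724 to 83049863) within 42140 bases and encode the chains of the fibrinogen molecule, which are needed in equal numbers. Fgb, for the beta chain, had by far the highest level of the 3 in every library. Its RPKM was 131 (25-2) and 460 (50-1) in the scr libraries, 46.7, 34.8 and 7.64 in knockdown 25-3, 50-2 and 50-5, and 429 in wt. All knockdown libraries were below both scr libraries, but Fgb was not called, with a log2 fold change of -3.33 ± 0.840 (SE, edgeR FDR 0.0600). It was called lower by DESeq2 (FDR 0.00934) and with wt added to the controls (edgeR FDR 0.0237). No other alternative that kept both scr libraries called it. With 1 control library left, its value was -3.95 without scr 25-2 and -2.16 without scr 50-1. Fga, for the alpha chain, had an RPKM of 0.829 and 9.36 in scr 25-2 and 50-1, 0.188, 0.0461 and 0.0360 in knockdown, and 4.65 in wt. Its log2 fold change was -5.82 ± 1.21 (SE, edgeR FDR 0.0393), from 20, 5 and 4 counts in knockdown against 82 and 896 in scr. The Fga call was lost without any 1 of the knockdown libraries (FDR 0.0959 to 0.156), and Fga was under the minimum without scr 50-1. Its value moved to -6.92 without knockdown 25-3 and to -6.69 without scr 25-2. Fgg, for the gamma chain, had an RPKM of 0.161 (25-2) and 14.0 (50-1) in the scr libraries, 0.165 in knockdown 25-3, and 8.08 in wt. In knockdown 50-2 and 50-5 it had 0 counts, which allows an RPKM of up to 0.0440 and 0.0429 (3 counts per library, counting error only). Knockdown 25-3, with 11 counts, was thus level with scr 25-2, with 10, and Fgg was not called (FDR 0.0818, edgeR). It was called lower with wt added to the controls (edgeR FDR 0.0411). DESeq2 (FDR 0.119) and the other alternatives that kept both scr libraries did not call it. Its log2 fold change was -6.99 with all libraries and -7.97 without scr 25-2, and it was not tested without scr 50-1.

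Per kilobase, Fgb exceeded Fga 92.3-fold in wt, 158-fold and 49.2-fold in scr 25-2 and 50-1, and 248-fold, 756-fold and 212-fold in knockdown 25-3, 50-2 and 50-5. Fgb exceeded Fgg 53.1-fold in wt, 816-fold and 32.9-fold in scr 25-2 and 50-1, and 283-fold in knockdown 25-3, which lay between the scr libraries. Both gaps were present in parental cells and smallest in scr 50-1. Fga stood at 0.575 and 0.669 of the Fgg level in wt and scr 50-1 but at 5.15 times that level in scr 25-2 and 1.14 times in knockdown 25-3. The window of 10 Mb around Fga and Fgg had a median log2 fold change of -0.24. F13b, which carries the fibrin cross-linking enzyme in plasma, had at most 2 counts.

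**Figure D2:**
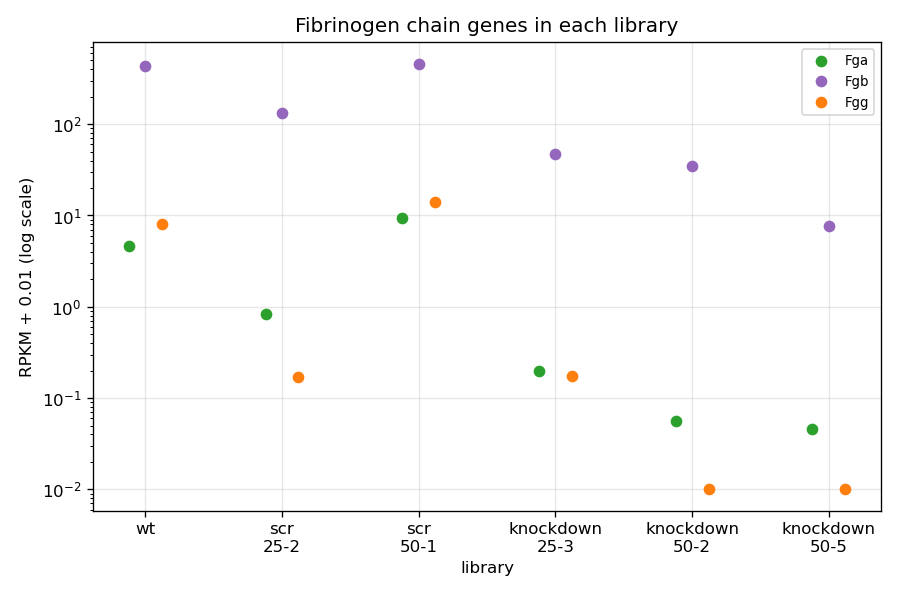
RPKM plus 0.01 on a log axis for Fga, Fgb and Fgg in each of the 6 libraries, 1 point per gene and library. Fgb lies highest throughout, from 460 in scr 50-1 to 7.64 in knockdown 50-5, and Fgg is at 0 counts in knockdown 50-2 and 50-5.

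Of the 7 vitamin K-dependent genes, 2 were tested. Pros1 (chromosome 16, 62854307 to 62929342) encodes protein S, the cofactor of activated protein C. Its RPKM was 72.8 and 48.1 in scr 25-2 and 50-1, 33.7, 24.6 and 22.9 in knockdown 25-3, 50-2 and 50-5, and 47.0 in wt, so that wt lay just under the scr range and above every knockdown library. Pros1 fell 2.26-fold (log2 fold change -1.17 ± 0.252 SE, edgeR FDR 0.0425). The 13 other tested genes in its 10 Mb window had a median log2 fold change of -0.61. Pros1 stood at -0.57 after this was taken out, and a part of the region in its fall was not tested. The Pros1 call was lost without any 1 of the knockdown libraries (edgeR FDR 0.0792 to 0.162). Its value was then -1.37, -1.10 and -1.07 without 25-3, 50-2 and 50-5. With 1 control library left, the value was -0.83 without scr 25-2, where the call was also lost, and -1.44 without scr 50-1. Proc, the gene of protein C, had an RPKM of 4.37 and 2.44 in scr against 1.00, 1.67 and 0.300 in knockdown, and 23.0 in wt. The groups of Proc did not overlap, and it was not called (log2 fold change -1.80 ± 0.684 SE, edgeR FDR 0.141), while wt stood far above both scr libraries. Its value was -2.39 to -1.30 with single libraries left out, and -3.32 with wt added to the controls (edgeR FDR 0.0612). F2, the gene of prothrombin, stayed under the minimum with 37 and 12 counts in scr, 4, 4 and 2 in knockdown and 163 in wt. Fitted with no minimum, F2 was lower by 2.99 on the log2 scale (SE 0.680, edgeR FDR 0.0479). F9 had 1 and 6 counts in scr, 13, 14 and 40 in knockdown 25-3, 50-2 and 50-5, and 26 in wt. F7, F10 and Proz had at most 2 counts in any library.

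In the fibrinolysis group, Plat (chromosome 8, 22757722 to 22782848), which encodes tissue plasminogen activator, fell by the smallest amount of the called members. Its RPKM was 63.6 and 63.2 in scr, 62.4 in wt, and 40.8, 36.7 and 27.1 in knockdown 25-3, 50-2 and 50-5. The scr libraries and wt were nearly equal, and all knockdown libraries lay below them. The fall was 1.83-fold (log2 fold change -0.88 ± 0.189 SE, edgeR FDR 0.0432). The value stayed between -1.01 and -0.73 with single libraries left out. The call was lost in all 5 of these fits (edgeR FDR 0.0790 to 0.152 in those without a knockdown library). Serpinf2, the gene of the plasmin inhibitor alpha-2-antiplasmin, had an RPKM of 0.790 and 0.320 in scr against 2.35, 2.80 and 0.386 in knockdown, with knockdown 50-5 inside the scr range (FDR 0.257, edgeR). Plg (plasminogen) had 45 counts in wt and at most 10 in the other libraries, Plau (urokinase) at most 1, and Cpb2, the fibrinolysis inhibitor, 0 in all 6.

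Of the early complement genes, C1ra (chromosome 6, 124512621 to 124523440), the protease C1r of the classical pathway, fell evenly. It had an RPKM of 7.64 and 8.16 in scr 25-2 and 50-1, 3.42, 3.18 and 2.93 in knockdown 25-3, 50-2 and 50-5, and 9.08 in wt. The mean went from 7.90 ± 0.368 (SD, n = 2) in scr to 3.18 ± 0.242 (SD, n = 3) in knockdown, a log2 fold change of -1.33 ± 0.173 (SE, edgeR FDR 0.0138). Both groups were tight, and the fitted value stayed between -1.39 and -1.28 whichever library was omitted, although the FDR was 0.0542 to 0.0825 with only 2 knockdown libraries. C1rb is a close copy of C1ra and had 8 to 79 counts. C2 showed no such pattern. Its RPKM was 7.38 (25-2) and 0.212 (50-1) in the scr libraries, 7.06, 8.01 and 5.37 in knockdown, and 6.27 in wt, so that scr 50-1 alone was low. C2 was not called (log2 fold change 0.82, FDR 0.667, edgeR). With 1 control library left, its value was 5.00 without scr 25-2 and -0.13 without scr 50-1. Masp1, a lectin pathway protease, had 5.05 and 5.64 in scr against 7.22, 7.73 and 4.81 in knockdown (log2 fold change 0.29 ± 0.230 SE, edgeR FDR 0.435). C4b had at most 5 counts, and reads of its near-identical neighbour C4a, with 10 to 20 counts, may not be separable from it. Masp2 had at most 22 counts and Mbl2, a mannose-binding lectin, at most 3.

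C3, on which all 3 complement pathways converge, differed 13.1-fold between the control libraries. It had an RPKM of 16.7 (25-2) and 219 (50-1) in the scr libraries, 22.3, 11.3 and 19.1 in knockdown 25-3, 50-2 and 50-5, and 90.3 in wt. The knockdown libraries lay around scr 25-2 and far below scr 50-1. C3 was not called (log2 fold change -2.75 ± 0.949 SE, edgeR FDR 0.116). With 1 control library left, the value turned to 0.061 without scr 50-1 and reached -3.64 without scr 25-2. Cfb, the gene of factor B of the alternative pathway, went the other way between the controls, at 25.1 (25-2) and 1.65 (50-1) in the scr libraries, with 6.14, 6.21 and 1.87 in knockdown and 10.1 in wt (FDR 0.371, edgeR). Cfb and C2 lie 87 bases apart on chromosome 17, on the same strand, and both were lowest in scr 50-1. Cfd, the gene of factor D, had at most 1 count.

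Among the complement regulators, C4bp (chromosome 1, 130635921 to 130661618), which encodes C4b-binding protein, fell. Its RPKM was 10.9 and 31.5 in scr 25-2 and 50-1, 2.25, 1.35 and 2.18 in knockdown 25-3, 50-2 and 50-5, and 38.5 in wt. The controls spread 2.90-fold, and all knockdown libraries were still below the lower of them. The log2 fold change was -3.46 ± 0.497 (SE, edgeR FDR 0.0164). It ranged from -4.02 without scr 25-2 to -2.51 without scr 50-1, and the call was lost without any 1 of the knockdown libraries (FDR 0.0666 to 0.0818). Cfi, the gene of factor I, had an RPKM of 60.0 and 6.35 in scr against 27.0, 5.89 and 1.05 in knockdown, and 79.4 in wt, with wide spread in both groups (log2 fold change -1.57 ± 1.36 SE, edgeR FDR 0.470). Cd59a, which blocks the membrane pore, had 4.55 and 1.34 in scr against 4.92, 5.65 and 8.13 in knockdown and 4.81 in wt. It was not called (log2 fold change 1.07 ± 0.558 SE, edgeR FDR 0.250). With 1 control library left, its value was 2.22 without scr 25-2 and 0.44 without scr 50-1. Vtn had 2 and 13 counts in scr, 66 in wt and at most 1 in knockdown. Serping1 (C1 inhibitor) had at most 4 counts and Cd55 at most 2.

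Of the terminal complement genes, 0 of 6 reached the minimum. C6, C8a and C8b had 0 counts in all 6 libraries, which allows an RPKM of at most 0.0514 in any of them (3 counts, counting error only), C8g had 3 to 13 counts and C9 at most 10. Hc, the gene of C5, had 9 and 7 counts in scr, 52, 50 and 30 in knockdown and 13 in wt. With no minimum its log2 fold change was 2.28 ± 0.502 (SE, edgeR FDR 0.0435), at a level of at most 0.304 RPKM.

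**Figure D3:**
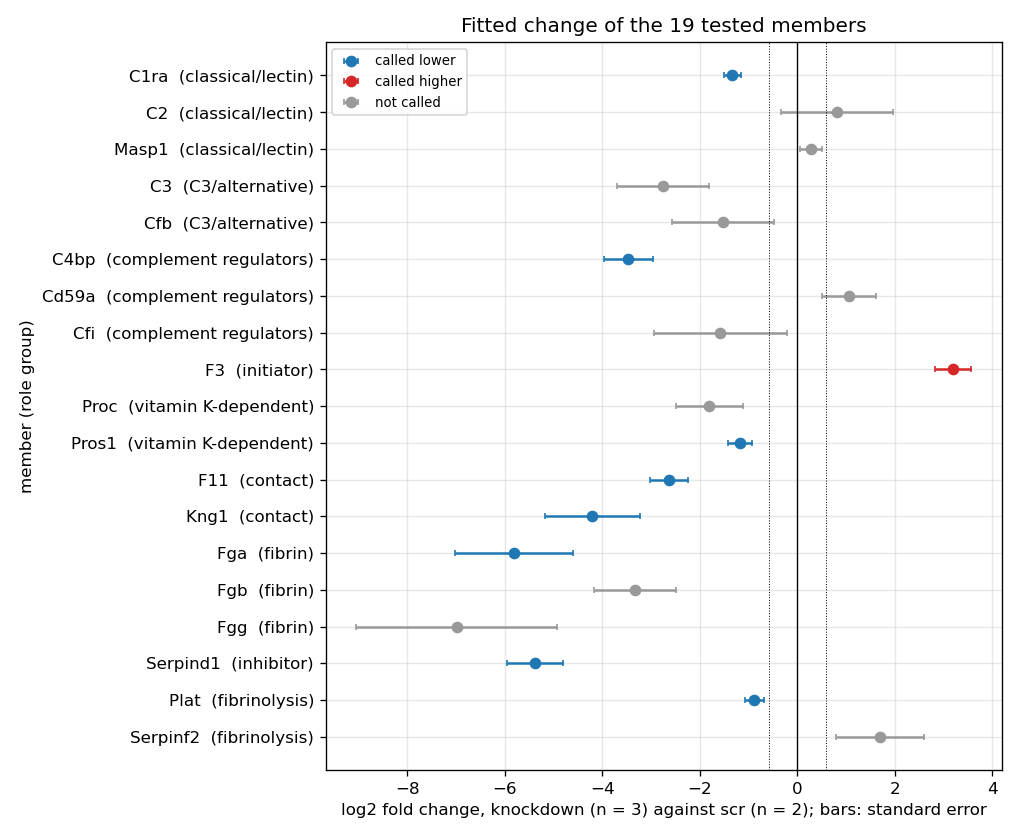
Fitted log2 fold change of the 19 tested members, knockdown (n = 3) against scr (n = 2), with bars for the standard error and dotted lines at a fold change of 1.5. F3 is called higher at 3.20, 8 members are called lower from -0.88 (Plat) to -5.82 (Fga), and 10 grey members are not called.

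The scr libraries often differed from each other in these genes. Between scr 25-2 and scr 50-1, RPKM plus 0.1 differed more than 2-fold in 11 of the 19 tested members (57.9%), against 12.8% of all tested genes. Of the 11, Fga, Fgg and Kng1 had passed the minimum through scr 50-1 alone. The filter thus set the direction of their difference between the controls, though not its size. The direction was mixed. As ratios of RPKM with nothing added, higher in 50-1 were C3, C4bp, Fga, Fgb, Fgg and Kng1, by 2.90-fold (C4bp) to 87.0-fold (Fgg). Higher in 25-2 were C2, Cfb, Cfi, Cd59a and Serpinf2, by 2.47-fold (Serpinf2) to 34.7-fold (C2). Scr 50-1 stood at 0.994 of scr 25-2 for Plat, 1.06 for Serpind1 and F11 and 1.07 for C1ra, and these 4 were called lower in knockdown. The parental library lay between the scr libraries in 7 of the 19, above both in 9 and below both in 3. It was above every knockdown library in all 8 members called lower. This comparison has 1 wt library and no test.

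**Figure D4:**
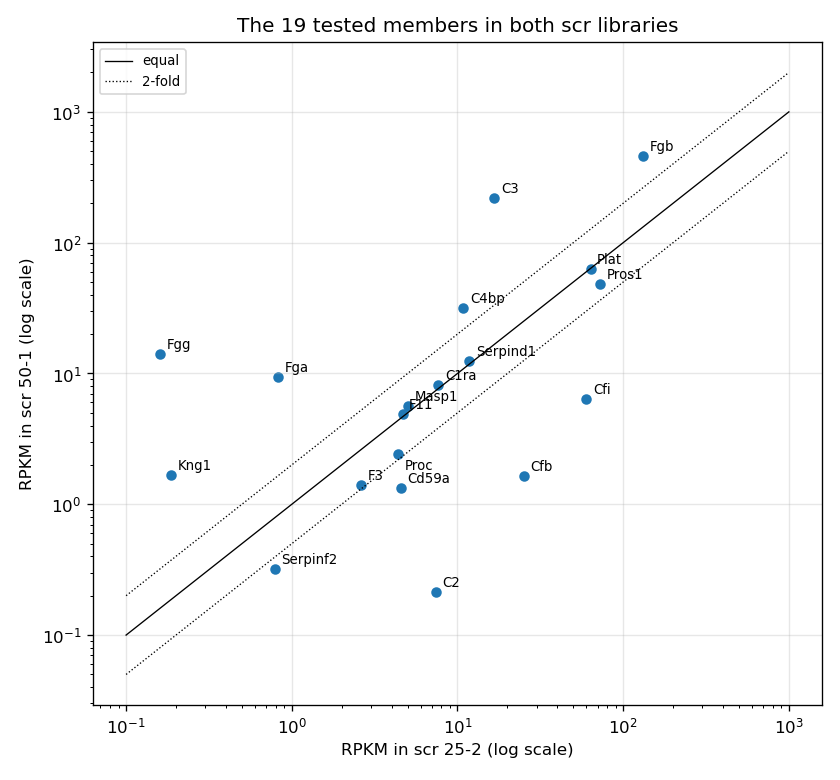
RPKM of the 19 tested members in scr 50-1 against scr 25-2, both on log axes, with a solid line at equality and dotted lines at 2-fold. Fgg, Kng1, Fga, C3, C4bp and Fgb lie above the upper dotted line and C2, Cfb, Cfi, Cd59a and Serpinf2 below the lower one.

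Summed over the 46 members, RPKM was 865 in wt and 432 and 893 in scr 25-2 and 50-1, against 225, 169 and 129 in knockdown 25-3, 50-2 and 50-5. Fgb and C3 together made up 60.0% of this sum in wt and 34.2% and 76.0% in scr, against 30.7%, 27.3% and 20.6% in knockdown. Fgb was the most abundant member in wt, both scr libraries and knockdown 25-3, and Plat in knockdown 50-2 and 50-5. The ratio of F3 to Serpind1, the starter of clotting to an inhibitor of thrombin, was 0.102 in wt and 0.223 and 0.113 in scr against 55.6, 33.1 and 242 in knockdown. Both genes of this ratio were singled out after their values were seen.

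**Figure D5:**
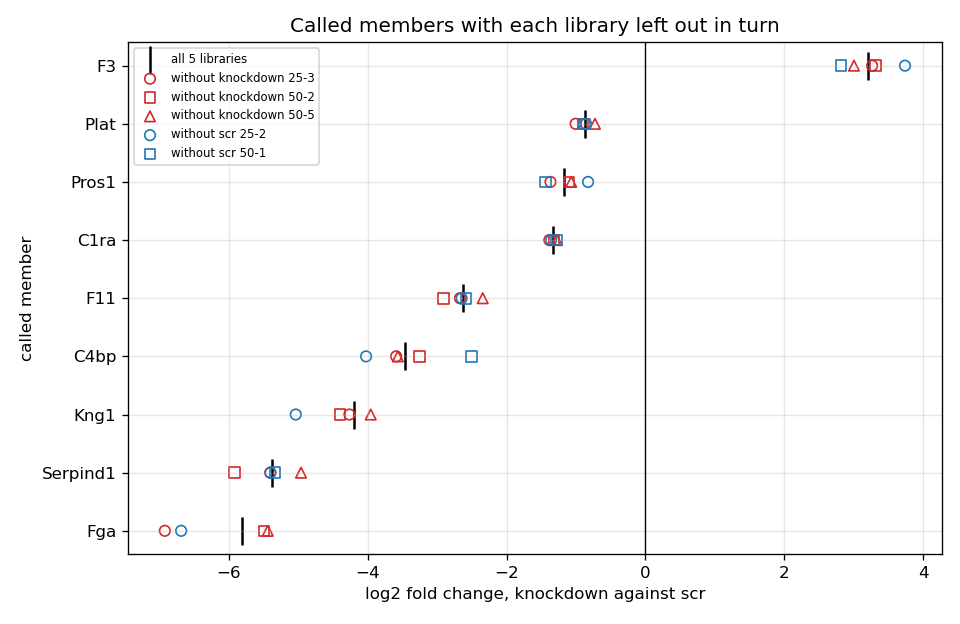
Log2 fold change of the 9 called members with all 5 libraries (black bar) and after the omission of single libraries (open symbols, red for a knockdown and blue for a scr library). Each member keeps its sign, and C4bp ranges from -4.02 to -2.51.

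Other genes of the same systems were taken from 2 lists of the pathways. Of 36 other complement genes found, 11 were tested, 0 were called higher (2 had an unadjusted p under 0.05 in edgeR, and DESeq2 called 1) and 1 lower (3 had such a p, and DESeq2 called 4), beside the 5.40% and 5.23% of all genes by edgeR, and the median was -0.13 on the log2 scale. The 1 was C1s1, whose product C1s is the partner of C1r. It had an RPKM of 77.9 and 50.9 in scr against 25.6, 22.5 and 20.6 in knockdown, and 62.3 in wt (log2 fold change -1.51 ± 0.215 SE, edgeR FDR 0.0163). C1ra and C1s1 both lie on chromosome 6, and both were below scr in all 3 knockdown libraries. Of 34 other clotting and fibrinolysis genes, 18 were tested, 3 were called higher and 1 lower, and the median was 0.031 on the log2 scale. Those with the largest rises were Serpinb2 and Serpine2. Serpinb2 encodes PAI-2, an inhibitor of plasminogen activators, and had an RPKM of 0.332 and 0.429 in scr against 3.87, 10.8 and 5.39 in knockdown (log2 fold change 4.12 ± 0.575 SE, edgeR FDR 0.0156). Serpine2 encodes protease nexin-1, which inhibits thrombin and plasminogen activators, and had 2.23 and 1.91 in scr against 36.5, 24.2 and 27.5 in knockdown (log2 fold change 3.81 ± 0.256 SE, edgeR FDR 0.00408). Lman1, a receptor that carries factors V and VIII out of the endoplasmic reticulum, was called lower, at 103 and 122 in scr against 65.5, 72.7 and 57.8 in knockdown (log2 fold change -0.80 ± 0.151 SE, edgeR FDR 0.0316). Without knockdown 50-5, Serpine2 kept its call (FDR 0.0248, edgeR), and C1s1, Serpinb2 and Lman1 did not (FDR 0.0516 to 0.0963).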

How the data were processed

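RNA was depleted of ribosomal RNA before sequencing. The authors used TopHat2 for alignment to mm10 and HTSeq (0.6.1p1 in the submitters' processing notes) for gene counts against RefSeq genes, and deposited these counts without normalization. The deposited RPKM values were computed by the authors with TMM-scaled library sizes in edgeR. Whether counting was stranded is not given in the sources used here. Library columns were matched by name, and 0 were left over. Rn45s took 10.1% to 13.1% of the counts.

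Counts of the 3 knockdown and 2 scr libraries were tested with the edgeR (4.0.16, R 4.3.3) quasi-likelihood test, TMM normalization and Benjamini-Hochberg adjustment (FDR) over all genes that exceeded an RPKM of 1 in any of these libraries, by the thresholds of the study. The study compared 2 knockdown clones with scr. The labels name no clones, so all 3 labelled libraries were used. The RPKM values that the study lists for its 2 clones are those of knockdown 25-3 and 50-2, and the comparison without knockdown 50-5 is therefore given beside the main one. The standard error (SE) was derived from the log2 fold change and its F statistic, and the common biological coefficient of variation was 0.272. The script was tested on simulated data. The members, gene lists, letters searched and alternatives were chosen with earlier results of these data known. By rule, values were given in all libraries for called members, by role for the other tested ones, as counts for members under the minimum, and, among other genes of the pathways, for the 2 called ones with the largest change per direction and list. The values of 1 other called gene are not reported here. Alternatives were DESeq2 1.42.0, other size factors and filters, limma 3.58.1 on log2 RPKM with pseudocounts of 1 and 0.1, wt as a control, the first number of the label as a term, and each library left out. Intervals for 0 counts cover counting error only. Figures were drawn with matplotlib 3.10.9.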

Additional observations from a re-analysis of the deposited data

How the results depend on the processing

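Over all tested genes, 625 were called higher and 605 lower. DESeq2 gave 1167 and 1155, and the first label number as a term gave 388 lower. With each library left out in turn, the calls ranged from 89 to 1146 higher and from 42 to 1127 lower. Among the members the counts of 1 higher and 8 lower became 2 higher and 9 lower with edgeR's own expression filter and with no filter. The first tested 27 members, and all 12864 genes tested gave 797 higher and 683 lower. The second tested 42 members, and all 18673 genes tested gave 735 higher and 632 lower. With the first label number as a term, 5 members were lower. With a library left out they ranged from 0 to 3 higher and from 0 to 9 lower. With edgeR, 0 members were lower without knockdown 25-3, where 10 had an unadjusted p under 0.05, 0 were higher without knockdown 50-2, where 1 had one, and the highest counts came without scr 25-2. The cause of these shifts was not tested. The members whose log2 fold change turned sign in any alternative were C3 (from -3.64 to 0.061 with a library left out), C2 (from -0.13 to 5.00), Cfb (from -2.42 to 1.52) and Cfi (from -3.28 to 0.83). In each of the 4, leaving out 1 of the scr libraries turned the sign. The groups share the first label number (25 or 50), whose meaning is not given, and the fit with it as a term is the only blocked one that was run. It gave 419 genes higher beside the 388 lower.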
